A study of Solanum lycopersicum with 18 samples.

Results

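N6-methyladenosine (m6A) is the most common internal mark of eukaryotic mRNA. It is written by a methyltransferase complex, removed by demethylases of the ALKBH family and read by YTH-domain proteins, and in plants it is found mostly near the stop codon and in the 3′ UTR, where it is known to affect how long a transcript lasts. In tomato fruit, ripening depends on ethylene and on a set of transcription factors, and is accompanied by active DNA demethylation. The regions described here are the places of the fruit transcriptome with the strongest m6A signal that were found in every immunoprecipitated library of the series.

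m6A-seq was performed on pericarp of the tomato cultivar Ailsa Craig, from wild-type fruit at 39 days post-anthesis (DPA, mature green), wild-type fruit at 42 DPA (breaker, the onset of colour change) and fruit of the Colorless non-ripening (Cnr) mutant at 42 DPA, with 3 replicates each. Cnr is a spontaneous epimutant that stays unripe, with hypermethylated DNA, and it lies in the same Ailsa Craig background. Each RNA sample was pooled from many fruits, so the spread between replicates covers pools and not single fruits. Fragmented mRNA was immunoprecipitated (IP) with an anti-m6A antibody and sequenced beside its own input library, and the deposited data are 9 peak lists, one for each IP sample. No treatment was given to any group.

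Peaks of the 9 lists that shared at least 1 bp were merged into 12119 regions, of which 7836 held a peak in all 9 lists and are called constant regions here. The word refers to the presence of a peak only. The 776 regions described were chosen by their fold enrichment, the ratio of IP fragments at a peak summit to the background level there, as those constant regions whose highest value per list averaged at least 14 over the 9 lists. They make up 9.90% of the constant regions. In 762 of them the authors' annotation names a gene, 854 genes in all, because 90 regions touch 2 or more genes. Many of these genes carry no name in the sources used here and are given by their Solyc identifier. A region covers a stretch of fragments and can hold more than one methylated adenosine.

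The values that chose the regions are given as a description. Their mean fold enrichment ran from 14.003 to 30.8 with a median of 16.1, against a median of 6.80 in the other 7060 constant regions, and 78 regions reached 20 or more. The 5 regions just inside the threshold had means of 14.003 (Solyc09g098340), 14.0045 (Solyc09g009430, a putative FtsZ division protein), 14.011 (Solyc10g074500), 14.040 (Solyc08g075310) and 14.042 (Solyc11g008430), and the 5 just outside had means of 13.995 (Solyc10g081150), 13.9891 (Solyc12g014397 and Solyc12g014400), 13.9889 (Solyc12g019300), 13.981 (Solyc01g094030) and 13.978 (Solyc06g054490). The means on either side of the threshold differed by less than the replicates of these regions. A total of 188 regions had a fold enrichment of at least 14 in each of the 9 lists, and every region had it in 2 lists or more.

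Each of the 9 libraries ranked these regions high, but the level of fold enrichment differed between libraries. The median fold enrichment of the 776 regions was 13.7, 15.1 and 16.4 in the replicates at 39 DPA, 15.4, 15.1 and 13.6 in wild type at 42 DPA, and 20.3, 15.3 and 21.8 in Cnr. Cnr replicate 2 lay within the range of the wild-type libraries and apart from the other 2 Cnr replicates. As means of the library medians, the groups stood at 15.1 ± 1.36, 14.7 ± 0.962 and 19.1 ± 3.40 (SD, n = 3 each), and the other constant regions at 6.30 ± 0.369, 6.06 ± 0.561 and 7.94 ± 1.007. The ratio of the median of the 776 regions to that of the other constant regions stayed between 2.25 and 2.51 in the 9 libraries. Of the 776 highest values of each list among constant regions, between 77.7% and 85.3% belonged to the 776 regions. Since the mean of these 9 lists chose the regions, the high ranks, the ratio and this overlap are in part set by the choice.

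**Figure D1:**
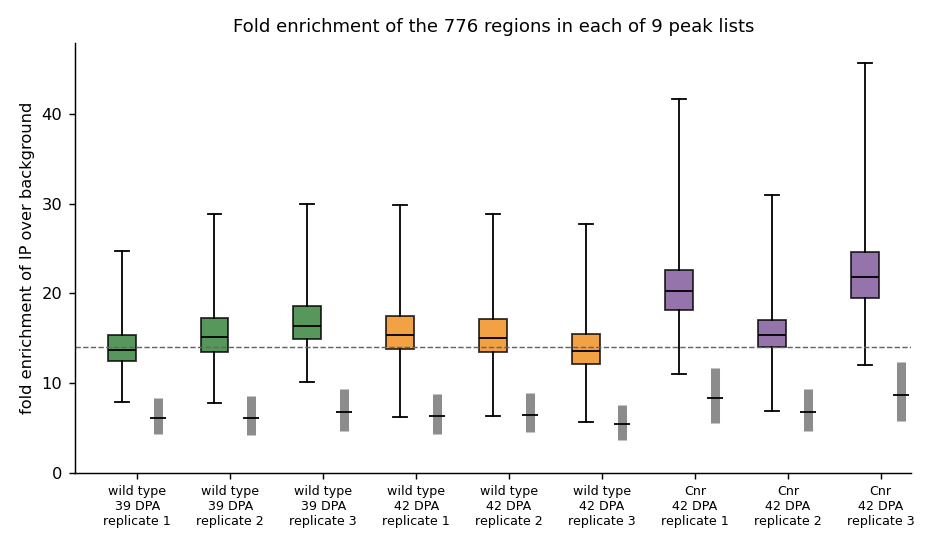
Fold enrichment (IP over background, linear axis from 0) of the 776 regions in each of the 9 libraries, coloured by group (boxes are quartiles with the median, whiskers reach the lowest and highest region). The grey bars give the quartiles and the black dashes the median of the other 7060 constant regions, and the dashed line is the mean of 14 that chose the regions. Cnr replicates 1 and 3 have medians of 20.3 and 21.8, above the other 7 libraries, and in these libraries the other constant regions lie higher too.

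Because the fold enrichment is a ratio, it was separated into its parts. The peak caller adds 1 to both numbers, so a summit's p-value and its fold enrichment together give the number of IP fragments and the background, with 99.9% of the IP numbers whole to within 0.1. The background is the local input level, or a floor set by the size of the library where the local level is lower. How closely it follows the abundance of the transcript was not tested. Floors of 44.6 to 51.1 fragments were found in the 9 libraries. In the 776 regions the IP number ran from 314 to 6314 fragments, and counting error alone gives a median SD of 0.044 and at most 0.081 on the log2 scale, covering counting error only. IP numbers here and below are not scaled for the size of the library. The spread between replicates of a group was larger, with a median SD of 0.20 on the log2 scale, pooled over the 3 groups (0.18 in the other constant regions). Over all 9 lists, differences between groups included, the median SD was 0.26 (0.27 in the others).

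The strongest region lay over the stop codon of Solyc01g049960, described as a chromosome-associated kinesin KIF4, a motor protein of chromosomes in animals, on chromosome 1 of SL3.0 from 47608934 to 47609376 (positions here and below as the lists give them). Its fold enrichment was 24.7, 26.5 and 29.6 at 39 DPA, 28.7, 24.6 and 24.3 in wild type at 42 DPA, and 41.7, 31.0 and 45.7 in Cnr. All 3 Cnr values were above the 6 wild-type values, and even the lowest of the 9 was above 24. The second, over the stop codon of Solyc12g032955 (annotated for protein binding, chromosome 12, 37739731 to 37740296), had 24.0, 28.9 and 29.9998, then 29.8, 28.9 and 25.5, and in Cnr 31.0, 24.8 and 36.8. Here the groups overlapped.

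The third was a region over the stop codon of Solyc08g013860, annotated as an NAD-dependent malic enzyme, which decarboxylates malate, a main acid of the fruit (chromosome 8, 3293921 to 3294526). Its fold enrichment was 21.1, 24.98 and 26.0 at 39 DPA, 25.7, 24.1 and 23.2 in wild type at 42 DPA, and 32.8, 24.5 and 38.6 in Cnr, so that Cnr replicate 2 fell among the wild-type values. Of the next 7 regions, 6 lay over a stop codon, in Solyc04g025260 (mean 25.9), Solyc05g026310 (25.3), Solyc10g045390 (25.2, annotated as an N-acetyltransferase), Solyc02g084700 (24.8), Solyc05g056130 (24.1, annotated as an oligosaccharyltransferase, which attaches sugar chains to proteins in the endoplasmic reticulum) and Solyc04g049010 (23.9, annotated as an exonuclease). The remaining one of these 7, with a mean of 24.3, was placed in a 3′ UTR where Solyc04g076910 and Solyc04g076920 meet. In 4 of these 10 strongest regions the background was above the floor in all 9 lists, and in Solyc04g076910 and Solyc04g076920 it was on the floor in all 9.

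Spread among the libraries differed widely between regions of similar mean. The steadiest was the region over the stop codon of Solyc06g063140, annotated for ATP binding (chromosome 6, 40004730 to 40005186). Its fold enrichment was 12.9, 15.1 and 15.4 at 39 DPA, 14.8, 15.8 and 13.3 in wild type at 42 DPA, and 15.4, 13.9 and 15.6 in Cnr, an SD of 0.11 on the log2 scale. No group stood apart there in the values as deposited. After each library was centred on its own median, this region was lower in Cnr than in wild type at 42 DPA, by −0.35 ± 0.08 (SE) on the log2 scale. The next 4, in Solyc11g008430 (a small GTPase by its annotation), Solyc01g094800 and Solyc01g094810, Solyc03g079940 and Solyc07g056220, had SDs between 0.11 and 0.12, and all 5 had a background above the floor in every list. These 4 were also lower in Cnr after centring, by between −0.22 and −0.42, so the steadiness is that of the deposited values. The 5 most variable regions had SDs from 0.65 to 0.90, and are described with the comparisons below or, for Solyc10g007140 (annotated for zinc ion binding), rose from 9.25 ± 1.23 at 39 DPA and 11.2 ± 0.972 in wild type at 42 DPA to 24.2 ± 4.35 in Cnr (SD, n = 3), on the floor in all 9 lists.

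By their place in the gene, the 776 regions were more often over the stop codon than the other constant regions were. A peak was placed there when it began in a coding exon or an intron and ended in the 3′ UTR or beyond the gene. A peak that begins in an intron need not cross the stop codon. Where a peak touched more than 1 gene this class was taken first, and a region took its most frequent class over the 9 lists. The class held 681 regions, 87.8%, against 74.9% of the other constant regions and 76.2% of all. Only 54 regions (6.96%, against 15.9%) were placed in the 3′ UTR, in 14 of them with a peak end beyond the annotated gene in at least 5 lists, while 8 were in coding sequence, 18 in an intron, 1 at the 5′ end and 14 in no annotated gene. The share over the stop codon was between 86.6% and 88.4% in each of the 9 lists. It was also higher than in the other constant regions at each level of background, from 87.1% against 67.6% where the background was on the floor in all 9 lists to 94.1% against 82.7% at 3 floors or more. These shares are descriptions with no test.

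The peaks were wider, with a median of 434 bp against 341 bp, and their summits fell closer together, with a median distance of 18 bp between the outermost summits of the 9 lists against 23 bp. A peak is placed by its ends, and the part of the width in the stop codon share was not tested. A peak end beyond the annotated gene was found for 26.7% of the 776 regions and 20.5% of the others. More than 1 summit in a list occurred in 4.51% against 6.20%, and another constant region in the same gene in 7.603% against 9.99%.

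A further 41 regions lay outside the stop codon and 3′ UTR classes. The strongest of them was in the coding sequence of Solyc03g061600 (annotated for protein binding, chromosome 3, 32695640 to 32696196), with 17.2, 19.8 and 21.6 at 39 DPA, 22.7, 22.3 and 19.9 in wild type at 42 DPA, and 23.9, 17.7 and 28.9 in Cnr. The single region at a 5′ end, in Solyc02g055550 (chromosome 2, 2248660 to 2249270), had 17.2, 22.3 and 23.5, then 22.6, 23.4 and 20.6, and in Cnr 21.1, 16.6 and 23.0. In both the groups overlapped. Intronic regions of Solyc11g008700 (nucleic acid binding by its annotation) and Solyc11g005015 (protein import) had means of 21.0 and 20.5, and a region on chromosome 11 from 30601120 to 30601705 with no annotated gene had 20.9. By class, the median of the mean fold enrichment was 16.1 over stop codons, 16.6 in 3′ UTRs, 16.5 in coding sequence, 15.3 in introns and 16.6 in regions without a gene. These means are the values that chose the regions, all at least 14, which limits how far the medians can differ. They therefore cannot show whether enrichment depends on the place. Among the other constant regions the median was highest over stop codons and lowest in coding sequence, and this difference was not tested.

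The share of constant regions that belonged to the 776 varied with the level of the input. Among the 2214 constant regions with a background on the floor in all 9 lists, 3.16% belonged to the 776 regions. The share was 17.2% among 2365 regions with a mean background above that and below 1.5 floors, 16.4% from 1.5 to 2, 10.4% from 2 to 3, 5.88% from 3 to 5 and 1.51% from 5 to 10. None of the 179 regions at 10 floors or more belonged to them, and the highest mean background among the 776 was 7.27 floors, against 134 among the others. The background is the denominator of the value that chose the regions, so these shares are in part fixed by the choice.

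**Figure D2:**
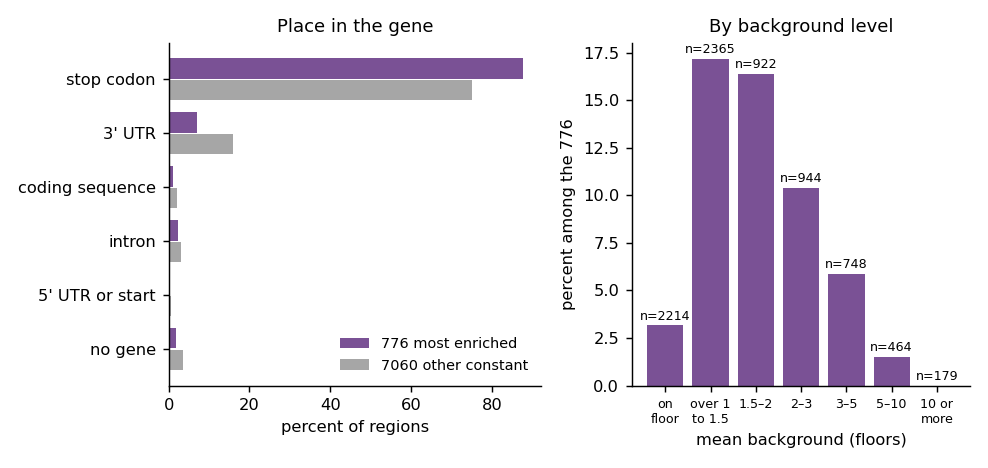
Left, percent of the 776 regions (purple) and of the 7060 other constant regions (grey) in each place class; right, percent of constant regions that belong to the 776 at each level of mean background over the 9 lists, in multiples of the library's floor, with the number of constant regions above each bar. The stop codon class holds 87.8% of the 776 regions and 74.9% of the others, and the right-hand bars peak at 17.2% just above the floor and reach 0 at 10 floors or more.

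The region with the highest background was that of Solyc07g026960, described as a metallopeptidase of the M24 family, over its stop codon (chromosome 7, 32800370 to 32801000). Its background was between 7.998 and 8.11 floors at 39 DPA, between 9.16 and 9.40 in wild type at 42 DPA and between 4.39 and 4.58 in Cnr. Its fold enrichment was 11.6, 13.6 and 13.8, then 14.1, 13.3 and 12.7, and in Cnr 19.4, 16.9 and 21.6, above all 6 wild-type values. The IP numbers went the other way, between 3500 and 4354 in Cnr against 5936 to 6314 in wild type at 42 DPA. Its higher ratio in Cnr thus came with fewer IP fragments, not scaled for library size, and a lower background in floors. The other 4 of the 5 highest backgrounds, from 5.32 to 6.16 floors, were in Solyc06g063140, Solyc04g007120 (damaged DNA binding), Solyc01g112290 (tRNA binding) and Solyc09g075130 (a small nuclear ribonucleoprotein of splicing).

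Along the genome, the 776 regions were found more often where other constant regions were few. Of the 860 constant regions with fewer than 5 others within 0.5 Mb, 18.5% belonged to the 776, and the share went down through 13.2%, 11.0%, 9.18% and 8.17% to 7.002% among the 1571 regions with 40 or more. The share per chromosome was between 7.32% on chromosome 9 and 11.9% on chromosome 4, with 1 of 24 regions on the unplaced sequences. These are shares over regions of one transcriptome and carry no test.

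By function, gene ontology (GO) terms came with 590 of the 776 regions, and 19 terms were held by at least 100 constant regions. Against 9.90% of all constant regions, the share in the 776 was 3.85% (10 of 260) for structural constituents of the ribosome and 4.19% (8 of 191) for RNA binding, and at the other end 16.8% (31 of 184) for the general term binding, 16.7% (23 of 138) for the nucleus, 14.2% (16 of 113) for regulation of transcription and 13.7% (17 of 124) for GTP binding. Protein kinases stood at 8.04% (23 of 286). Terms share genes and the counts are small, and no test was made.

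Among the regions whose gene is described by name in the sources, several that serve as examples were chosen after their values were seen. Both a small and a large subunit ribosomal protein had regions over the stop codon although the ribosome term as a whole was rare. That of Solyc11g072260, the 40S ribosomal protein S13 (chromosome 11, 55761421 to 55761935), had 17.2, 19.6 and 20.6 at 39 DPA, 25.1, 21.4 and 18.6 in wild type at 42 DPA, and 32.5, 23.8 and 33.0 in Cnr. That of Solyc08g075850, the 50S ribosomal protein L24, ran from 16.1 to 30.1 over the 9 lists. In Solyc03g093640, embryonic flower 2, a Polycomb protein that represses flowering genes in Arabidopsis (chromosome 3, 56606413 to 56606917), the values were 18.0, 21.1 and 22.1, then 19.1, 17.8 and 15.9, and in Cnr 31.2, 21.6 and 32.8. Other regulators of transcription among the 776 were the corepressor LEUNIG (Solyc09g061290, 10.7 to 27.0 over the 9 lists), an AGAMOUS-like MADS-box factor (Solyc07g052700, 11.3 to 24.2), subunit C10 of nuclear factor Y (Solyc06g016750, 10.6 to 23.4) and a calmodulin-binding transcription activator (Solyc05g015650, 9.47 to 24.2). In the nuclear factor Y region Cnr replicate 2 lay below 1 replicate at 39 DPA, and in the other 3 every Cnr value was above all 6 wild-type values. Such a pattern was common. Against wild type at 42 DPA alone, Cnr lay above without overlap in 42.1% of the 776 regions and 48.2% of all tested regions. The share against all 6 wild-type values was not computed.

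Known ripening genes were then looked up among the regions. A list of 36 genes was used, made of 7 ripening regulators, 8 ethylene genes, 4 carotenoid genes, 5 cell wall genes, 4 DNA demethylases and 8 ALKBH genes. Of these, 15 had a constant region, 16 regions in all, and 0 of the 16 belonged to the 776. The highest was that of TAGL1, a MADS-box regulator of ripening, with a mean of 12.2 and rank 1289 of 7836, followed by SlALKBH1 with 9.997 and ZDS, the zeta-carotene desaturase, with 8.31. The means of SlDML2, the DNA demethylase of ripening, FUL2 and the ethylene receptor NR were 4.49, 5.89 and 6.96. With 9.90% of all constant regions among the 776, a list of 16 is too short to read a difference from.

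Whether m6A at these regions differs between the epimutant and the wild type was examined on the log2 fold enrichment of Cnr against wild type at 42 DPA, with limma across the 8007 regions that had a peak in all 6 lists. A region was called when the fold change was at least 1.5 and the Benjamini-Hochberg adjusted p over all 8007 was under 0.05. Of the 776 regions, all of which were tested, 151 (19.5%) were higher and 2 (0.258%) lower in Cnr. Over all tested regions, 25.2% were higher and 1.91% lower, so that the share of the 776 regions was below the background in both directions. The median change was 0.36 on the log2 scale in the 776 regions and 0.36 in all tested regions, and 703 of the 776 had a higher mean in Cnr. A higher mean was common in all tested regions too, where the lower quartile of the change was 0.12 (0.19 in the 776). In 327 regions (42.1%) all 3 Cnr values were above all 3 wild-type values and in 8 (1.03%) below, against 48.2% and 5.08% of all tested regions.

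The shift was of the same size in all tested regions. The study reported a higher overall mRNA m6A level in Cnr by LC-MS/MS. Centring removes any change that all regions share, whatever its origin, and that origin was not tested. When each library was centred on its own median, 12 of the 776 regions were higher and 15 lower in Cnr, against 5.40% and 7.76% of all tested regions, and the median change of the 776 was −0.03. The result also turned on single libraries. The number of higher regions was 294 without Cnr replicate 2 and 78 without Cnr replicate 3, and after centring 21 were higher without Cnr replicate 2. For these counts the share over all tested regions was not computed. Limma estimated a single spread for all regions as deposited, with an SE of 0.17 for each, so that the call followed the fold change alone, and with the spread of each region by itself 30 regions were higher and 1 lower (all tested, 9.13% and 0.837%). Regions with high Cnr values entered the choice more easily. Of the 578 regions that averaged at least 14 at 39 DPA alone, a group outside this comparison, 101 (17.5%) were higher and 3 lower.

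Background and IP numbers were set beside these calls. The median log2 change of the IP number in Cnr was 0.37 in the most enriched regions and 0.28 in all tested regions. These IP numbers were not scaled for library size. Of the 465 regions whose background exceeded the floor in each of the 6 lists, 60 (12.9%) were higher in Cnr, against 17.2% of the 3939 tested regions of this kind. In 51 of these 60 the background, in multiples of the floor, was lower in Cnr, with a median log2 difference of −0.35, and over all tested regions this held for 566 of 679. In the 405 regions called in neither direction it was lower in 144, with a median of 0.15. The background is the denominator of the ratio on which regions were called, so this difference is in part fixed by the call. Among the 85 regions with the background on the floor in all 6 lists, 27 (31.8%) were higher, against 36.1% of the 2482 tested regions of this kind. The floor itself differed between libraries, from 47.6 to 50.9 fragments in wild type at 42 DPA and from 44.6 to 48.8 in Cnr, and it enters the ratio of these regions too. What the input level contributed to the calls was not tested beyond these counts.

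**Figure D3:**
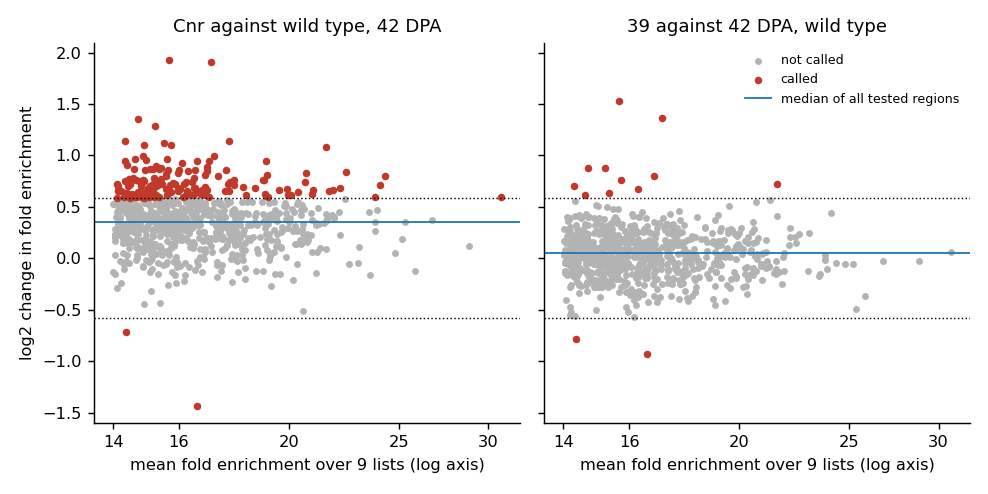
Log2 change in fold enrichment of the 776 regions against their mean fold enrichment over the 9 lists (log axis), for Cnr against wild type at 42 DPA (left) and for 39 against 42 DPA in wild type (right), with called regions in red. Dotted lines mark a 1.5-fold change and the blue line the median of all tested regions, 0.36 on the left and 0.05 on the right. On the left the whole cloud sits around the blue line, and on the right 11 regions are called above and 2 below.

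Several regions differed in Cnr well beyond the median change of all tested regions. The largest rise was in the region over the stop codon of Solyc06g060850, annotated as a ubiquitin-specific protease, which removes ubiquitin from proteins (chromosome 6, 38986310 to 38986723). Its fold enrichment was 6.22, 6.34 and 5.64 in wild type at 42 DPA and 24.4, 18.6 and 27.1 in Cnr, without overlap. The log2 change was 1.93 ± 0.17 (SE), a 3.805-fold rise with an adjusted p of 2.8e-25 from limma, and 1.54 ± 0.08 after centring (adjusted p of 1.4e-05). Its IP numbers were 814, 744 and 726 against 1461, 1035 and 1437, and its background was 2.66, 2.45 and 2.51 floors against 1.21, 1.22 and 1.17, so that both parts of the ratio differed.

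Next came a region at which Solyc07g053960, a putative ubiquitin-conjugating enzyme, and Solyc07g053970, a vacuolar calcium channel, overlap (chromosome 7, 62488852 to 62489463). The counting cannot assign it to either gene. It had 7.32, 7.37 and 6.13 in wild type at 42 DPA against 27.4, 20.8 and 31.0 in Cnr, on the floor in all 6 lists. The log2 change was 1.91 ± 0.17 (adjusted p of 5.6e-25), and 1.52 ± 0.08 after centring.

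A further 3 regions completed the 5 largest rises. That of Solyc02g094320 and Solyc02g094330, annotated for ATP binding and the cytoskeleton (chromosome 2, 55523679 to 55524093), went from 8.20, 8.35 and 7.94 to 22.2, 17.7 and 23.1, a log2 change of 1.35. Solyc07g063240 (chromosome 7, 65886513 to 65886936) went from 8.92, 8.81 and 7.94 to 22.6, 15.7 and 25.6, a log2 change of 1.29. Solyc01g056520, annotated for intracellular protein transport, with its region in the 3′ UTR (chromosome 1, 54531833 to 54532365), went from 11.3, 10.2 and 9.64 to 25.3, 16.5 and 28.4, a log2 change of 1.14. After centring, the smallest of these 3 changes was 0.75, with an adjusted p of 0.0012 in Solyc01g056520. In each of these 5 regions Cnr replicate 2 was the lowest of the Cnr replicates, as it was for the libraries as a whole.

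Only 2 of the 776 regions fell in Cnr in the fit as deposited. In Solyc04g015480, over the stop codon (chromosome 4, 5691581 to 5691973), the fold enrichment was 27.1, 26.3 and 24.9 in wild type at 42 DPA and 11.0, 6.86 and 11.97 in Cnr. Its log2 change was −1.43 ± 0.17 (adjusted p of 1.8e-14), and −1.82 ± 0.12 after centring. In Solyc04g039675, also over the stop codon (chromosome 4, 13351805 to 13352228), the values were 20.8, 18.7 and 19.2 against 12.3, 9.52 and 14.4, a log2 change of −0.72 ± 0.17 (adjusted p of 0.00022) and −1.10 ± 0.10 after centring. Without Cnr replicate 2 its change was −0.55, short of 1.5-fold, and 1 region was called lower. Both were on the background floor in all 9 lists. Only in wild type at 42 DPA did their group means, 26.1 and 19.6, reach the 14 of the choice, so both were chosen through that group. The IP numbers of Solyc04g015480 were 1351, 1278 and 1291 in wild type at 42 DPA and 549, 314 and 545 in Cnr, and those of Solyc04g039675 were 1038, 906 and 996 against 612, 436 and 657. No annotation of either gene is at hand.

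Whether the same regions change as wild-type fruit passes from mature green to breaker was examined in the same way over 8533 regions, with the same 3 wild-type lists at 42 DPA as in the comparison above. Of the 776 regions, 11 (1.42%) were higher and 2 (0.258%) lower at 39 DPA, against 3% and 1.55% of all tested regions. The median change was 0.04 on the log2 scale in the 776 and 0.05 in all tested regions. In 109 regions (14.05%) all 39 DPA values were above all 42 DPA values and in 68 (8.76%) below, against 18.0% and 10% of all tested regions. Without replicate 3 at 39 DPA 7 were lower, and without replicate 3 of wild type at 42 DPA 4 were. After centring, 9 were higher and 5 lower (2.06% and 2.17% of all tested), with 8 lower without replicate 3 at 39 DPA or replicate 2 of wild type at 42 DPA. Shares over all tested regions were not computed for the fits without a replicate. With the spread of each region by itself, 0 were higher and 0 lower by the adjusted p, although 11 and 2 had an unadjusted p under 0.05 with the fold change (of all tested, 0 and 1 by the adjusted p, or 0% and 0.0117%, and 248 and 130 unadjusted). Chosen on Cnr alone, 35 of 1450 regions (2.41%) were higher and 8 lower.

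In this comparison 4 of the 5 largest rises towards 39 DPA were regions already named for Cnr, and since both comparisons rest on the same wild-type lists at 42 DPA this is not independent. Solyc06g060850 had 16.8, 16.3 and 19.7 at 39 DPA, a log2 change of 1.53 ± 0.14 (adjusted p of 4.1e-25), and its background was 1.06, 1.08 and 1.02 floors. The region of Solyc07g053960 and Solyc07g053970 had 15.4, 18.4 and 20.02, a log2 change of 1.37. Solyc07g063240 had 14.2, 15.4 and 17.8 (0.88), and that of Solyc02g094320 and Solyc02g094330 had 13.98, 14.1 and 17.0 (0.87). At all 4 the wild type at 42 DPA lay below both the other groups without overlap. In the regions of Solyc07g053960 and Solyc07g053970 and of Solyc02g094320 and Solyc02g094330, Cnr also lay above 39 DPA without overlap.

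The fifth was Solyc01g097860, over the stop codon (chromosome 1, 88430980 to 88431418), with 19.4, 24.5 and 26.7 at 39 DPA against 13.96, 13.9 and 12.4 at 42 DPA. Its log2 change was 0.80 ± 0.14 (adjusted p of 5.5e-07), and 0.74 ± 0.10 after centring. Its values in Cnr, 14.8, 10.5 and 15.4, overlapped those of wild type at 42 DPA. Only at 39 DPA did its group mean, 23.5, reach the 14 of the choice. The 2 regions lower at 39 DPA were the same as the 2 lower in Cnr. Solyc04g015480 had 12.8, 13.6 and 14.7, a log2 change of −0.93, and Solyc04g039675 had 9.52, 11.8 and 12.98, a log2 change of −0.78. At both, wild type at 42 DPA was the highest of the 3 groups without overlap.

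**Figure D4:**
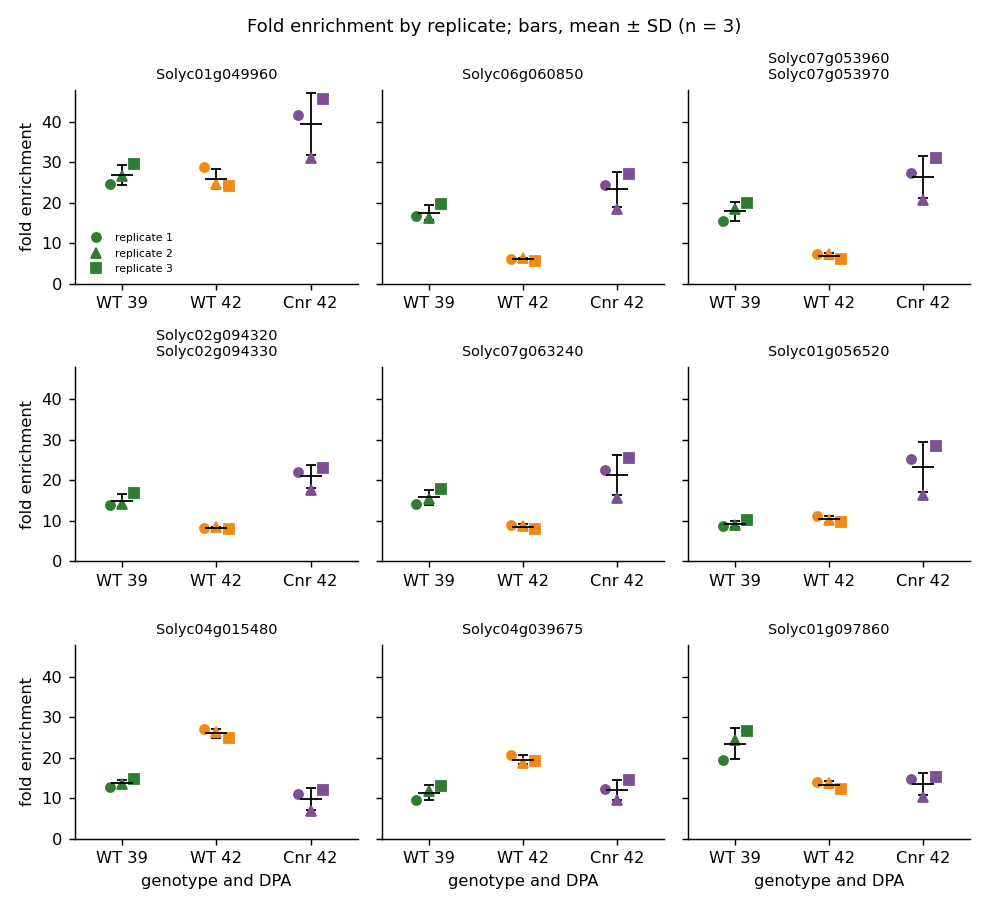
Fold enrichment (linear axis from 0) in each replicate of the 3 groups for the most enriched region (Solyc01g049960) and for 8 regions, those with the up to 5 largest called rises and falls of each comparison, with the mean and SD (n = 3) in black and the replicate number by symbol. In 4 regions, such as that of Solyc06g060850, wild type at 42 DPA lies below both other groups, in the 2 of chromosome 4 it lies above both, Solyc01g056520 is high in Cnr alone and Solyc01g097860 at 39 DPA alone.

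One region with a named metabolic gene stood out in both comparisons and was chosen after its values were seen. Solyc06g019170 encodes delta-1-pyrroline-5-carboxylate synthetase, which makes the precursor of proline, and its region lay over the stop codon (chromosome 6, 17989983 to 17990524). It had 20.4, 22.7 and 23.7 at 39 DPA, 14.4, 13.4 and 12.7 in wild type at 42 DPA and 30.4, 22.5 and 34.1 in Cnr. The log2 change was 1.08 in Cnr (adjusted p of 1.1e-08) and 0.72 at 39 DPA (adjusted p of 1.1e-05), both against the same wild-type lists. Both rises came with fewer IP fragments, not scaled for library size, and a lower background. In Cnr the IP number differed by −0.70 and the background, in multiples of the floor, by −1.74 on the log2 scale, and at 39 DPA by −0.38 and −1.15.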

How the data were processed

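The authors sequenced 18 m6A-seq libraries, with 1 IP and 1 input for each of 9 RNA samples. Per the labels and the study's methods, reads were cleaned with cutadapt 1.16 and Trimmomatic 0.30 and checked with FastQC 0.11.7 (versions from the submitters' processing notes), aligned with BWA to SL3.0, and peaks were called with MACS in each IP library against its input at a false discovery rate under 0.05 and annotated with PeakAnnotator. The deposited fold enrichment is a ratio made by the authors with MACS, and the deposited −log10 p and −log10 q values come from the same program. The lists hold 105726 lines and 92197 summits. The headers of 2 lists lack the names of the −log10 columns, which were taken by position and checked against the peak score. Total reads per library were not used here. Precision is instead given by the IP fragments at a summit.

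Peaks sharing at least 1 bp were merged, and the highest fold enrichment of a list in a region was used. A background within 0.1 of the most frequent value of a library was taken as its floor. Log2 fold enrichment was compared with limma 3.58.1 in R 4.3.3, with Python 3.11.15 and pandas 2.3.3 for the rest. The recovery of IP number and background and the limma step were tested on simulated data, and the other steps were not. The replicates are the labels' own, and they are pooled samples. As deposited, the p-values of both comparisons rest on 1 spread between replicates shared by all tested regions. They do not measure the spread between the replicates of the region named. After centring the SE differed between regions. In the Cnr comparison, replicates of the same number deviated together from their group means (Pearson's r of 0.18, 0.44 and 0.34 across 8007 regions), but Cnr replicate 1 with wild-type replicate 3 (0.19) and Cnr replicate 3 with wild-type replicate 1 (0.23) did so too. A fit with the replicate number as block gave 151 regions higher and 2 lower. The block leaves the log2 changes of this balanced design as they were, and with 1 spread for all regions the calls follow the fold change, so these counts say nothing of stability. With the block after centring, 12 were higher and 15 lower.

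Named regions are the 10 with the highest mean, 5 on each side of the threshold, up to 5 with the largest called rise and fall without overlap in each comparison, those with the lowest and highest spread (5 each), the 5 with the highest background, up to 5 outside the stop codon and 3′ UTR classes, and members of the ripening list. The regions, lists and tests were chosen with earlier results of these data known. Sequences and motifs were not analysed here, since no genome of the build was at hand.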

Additional observations from a re-analysis of the deposited data

How the results depend on the processing

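The number of most enriched regions was 1359 at a mean of at least 12 and 399 at 16, and between 647 and 839 when any one list was left out. The share over the stop codon was 86.3% at 12 and 87.0% at 16. For Cnr against wild type, the numbers of higher and lower regions were 310 and 6 at a threshold of 12, 70 and 1 at 16, 12 and 15 after median centring, 358 and 5 by the adjusted p alone, 60 and 0 with the background above the floor in all 6 lists, and 30 and 1 with the spread of each region by itself. With the geometric mean 1 was lower. Leaving out a replicate gave 78 to 294 higher and 1 to 3 lower, and after centring 10 to 21 and 11 to 22. The highest of these, 294 and 21, came without Cnr replicate 2. Of all tested regions, 25.2% and 1.91% were called in the main fit, which was also used at 12 and 16. The shares were 5.40% and 7.76% after centring, and 9.13% and 0.837% with the spread of each region by itself. Above the floor 17.2% were higher. For the adjusted p alone and without a replicate they were not computed, so those counts are not read as particular to the 776 regions.

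For 39 against 42 DPA, the numbers were 21 and 8 at 12, 4 and 1 at 16, 50 and 25 by the adjusted p alone, 4 and 0 above the floor, 0 and 0 with the spread of each region by itself, and 35 and 8 for regions chosen on Cnr, which were more (1450). After centring 5 were lower, and 1 with the geometric mean. Leaving out a replicate gave 9 to 15 higher and 2 to 7 lower, and after centring 8 to 12 and 4 to 8. The 7 lower regions came without replicate 3 at 39 DPA, and 4 without replicate 3 of wild type at 42 DPA. Of all tested regions, 3% and 1.55% were called in the main fit, also used at 12 and 16 and for the regions chosen on Cnr. The shares were 2.06% and 2.17% after centring, and 0% and 0.0117% with the spread of each region by itself. For the adjusted p alone, above the floor and without a replicate they were not computed. Here same-numbered replicates had an r of 0.23, 0.34 and 0.08, while replicate 3 at 39 DPA with replicate 1 at 42 DPA had 0.17. The replicate block gave 11 and 2, and 9 and 5 after centring, with the same log2 changes by construction. Of 98 values of the named changes under centring or without a replicate, 97 kept direction and call. That of Solyc04g039675 in Cnr fell short of a 1.5-fold change without Cnr replicate 2 (−0.55). The spread by region, the centred block and the centred counts without a replicate were added after seeing the data. Other causes of these shifts were not tested.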
